A study of Mus musculus with 5 samples.

Results

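The data describe 6 genes of the integrated stress response in stimulated mouse CD8 T cells: Atf4, Ddit3, Trib3, Asns, Atf3 and Ppp1r15a. All probe sets that the platform annotation assigns to 1 of these genes and to no other gene were taken. This gave 9 of the 12422 probe sets on the array that were not controls, for 6 of its 8251 named genes. The cells were CD8 T cells low in CD44, enriched by negative selection from lymph nodes of C57BL/6 mice aged 6 to 8 weeks that carry the OT-I transgenic T cell receptor, which recognises an ovalbumin peptide on H-2Kb. They were stimulated in culture on latex microspheres coated with the peptide and H-2Kb complex and with B7-1, and every culture also received human IL-2. The groups were 48 h without IL-21 (2 arrays), 48 h with murine IL-21 (2 arrays) and 72 h with murine IL-21 (1 array), with total RNA hybridised to Affymetrix oligonucleotide arrays. Each sample is labelled a biological replicate, but whether mice or cultures were separate is not stated. The p-values refer only to the scatter among the arrays within the 48 h groups, since the 72 h group has 1 array. A culture kept without IL-21 until 72 h was not analysed here, so at 72 h the passage of time and longer exposure to IL-21 cannot be told apart, and the purified cells are a model of activation on beads without antigen-presenting cells.

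The integrated stress response begins when kinases that sense amino acid shortage, misfolded protein in the endoplasmic reticulum, viral RNA or haem shortage phosphorylate the translation initiation factor eIF2. General translation then falls while the transcription factor ATF4 is translated more, so that much of its control is invisible to an mRNA measurement. ATF4 induces enzymes and transporters that supply amino acids, further transcription factors (ATF3 and CHOP, the product of Ddit3), the pseudokinase TRIB3 and the phosphatase subunit GADD34 (Ppp1r15a), which reverses eIF2 phosphorylation. Activated T cells, which grow fast, draw on ATF4 for amino acid supply.

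ATF4 binds composite sites, known as CARE, with the core TGATGNAA. To show where the members carry this core, the window from 250 bases before to 50 after each gene's RefSeq start (GRCm38.p6) was searched on both strands, where the core reads TTNCATCA on the opposite strand. All 6 genes had a window. Asns, Atf3 and Trib3 held 1 match each and Atf4, Ddit3 and Ppp1r15a none, while 3.97% of all 32851 windows of that table held 1 or more. The match began 23 bases before the start in Asns and 110 bases before it in Atf3, and it lay at position 15 after the start in Trib3. The window of Ppp1r15a held the palindrome TGACGTCA, the cyclic AMP response element to which factors of the ATF and CREB family bind, 12 bases before the start, and 1.79% of all windows held it. The 2 cores share no overlap in these genes. A match is a description of letters and not of binding. Sites outside the window were not searched, so a gene without a match may carry the core elsewhere. The sequences below are shown because they are the stretches that set these 4 genes apart in the search, read 5′ to 3′ on the gene's strand (the minus strand in each case), with the match in capitals.
Asns, chr6:7693210-7693329: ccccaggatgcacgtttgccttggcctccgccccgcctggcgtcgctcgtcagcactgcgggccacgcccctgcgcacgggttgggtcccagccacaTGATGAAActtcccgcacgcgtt
Atf3, chr1:191183364-191183483: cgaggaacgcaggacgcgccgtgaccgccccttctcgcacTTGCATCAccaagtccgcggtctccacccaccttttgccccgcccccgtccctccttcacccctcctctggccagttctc
Trib3, chr2:152344028-152344057: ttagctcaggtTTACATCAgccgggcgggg
Ppp1r15a, chr7:45526269-45526388: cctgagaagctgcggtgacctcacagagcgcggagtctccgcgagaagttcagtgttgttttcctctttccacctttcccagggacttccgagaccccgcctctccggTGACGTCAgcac

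Of the 9 probe sets, 7 passed the filter on low signal (a mean log2 signal above the 40th percentile of all probe sets). The 2 that did not were a probe set of Asns (161221_f_at) and one of Atf3 (161645_r_at). Atf4 (100599_at), Ddit3 (101429_at), Trib3 (161067_at) and Ppp1r15a (160463_at) had 1 probe set each. In such bulk RNA, fewer cells of a type and less RNA per cell cannot be told apart. Signals are given after quantile normalisation, which gives every array the same distribution, so that a difference is relative to the bulk of probe sets. They include an offset of 1.53 signal units and can be compared between arrays for 1 probe set but not between probe sets. Before normalisation the arrays differed in overall signal, and the difference followed the groups. Trimmed means were 105.1 and 105.6 for the 48 h pair given IL-21. They were 75.4 and 65.3 for the pair lacking it, and 65.9 for the 72 h array. The hybridisation controls had the same pattern, with geometric means of 542 and 445, of 304 and 275, and of 302. Both comparisons use the brighter pair, so in each the overall signal differed between the groups compared. The cause of this difference was not tested. Of 7 T cell markers on the array all 7 passed the filter. They were Cd8a and Cd8b1, and Cd3e, Cd3g, Cd3d, Cd247 and Thy1, which CD4 T cells also express. Their summed signal was 4539 to 5079 on the 48 h arrays and 7603 at 72 h. Of 7 B cell markers on the array 5 passed (Cd79a, Cd79b, Ms4a1, Pax5 and Ighm), while Cd22 and Blk did not. Their summed signal, most of it Ighm, was 395 to 678 at 48 h and 993 at 72 h. Of 11 myeloid and dendritic cell markers 6 passed, while Lyz2, Itgam, Fcgr3, Adgre1 and Mpo did not. Their sum was 210.3 to 286.8 at 48 h and 354.2 at 72 h. Of 2 CD4 T cell markers on the array Cd4 passed and Cd40lg did not, with a sum of 12.3 to 19.0 at 48 h and 35.6 at 72 h. The 1 NK cell marker on the array, Ncr1, lay below the filter, with 1.97 to 5.14 at 48 h and 10.2 at 72 h. Of 6 erythroid, platelet and stromal markers 4 passed, with a sum of 215 to 305 at 48 h and 313 at 72 h. The part of these markers in the differences at 72 h was not tested.

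**Figure D1:**
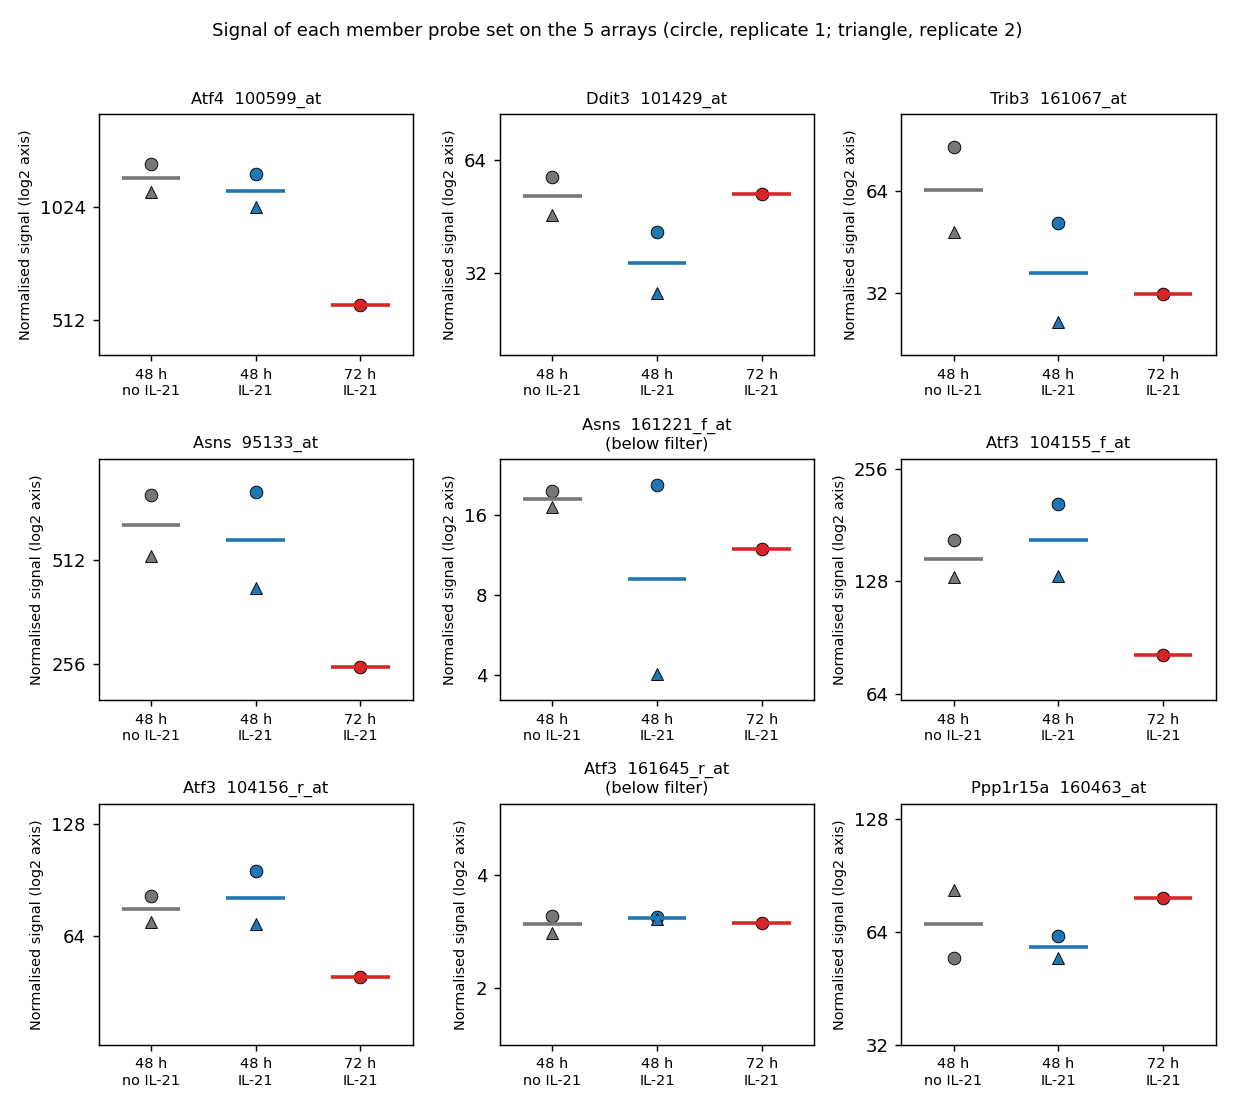
Normalised signal (log2 axis, own range in each panel) of the 9 probe sets on each of the 5 arrays, by group. Points are arrays, circles replicate 1 and triangles replicate 2, and lines are group means on the log2 scale. The 72 h array lies below all 4 arrays at 48 h for Atf4, for Asns 95133_at and for Atf3 104155_f_at and 104156_r_at, and within their range for Ddit3, Trib3 and Ppp1r15a.

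At 48 h the cultures with and without IL-21 were compared, all of them stimulated through antigen and B7-1. None of the 7 tested member probe sets differed at an adjusted p under 0.05 in limma, and none reached an unadjusted p under 0.05. Over the whole array 0% of 7453 probe sets were called and 4.39% had an unadjusted p under 0.05. By sign 5 of the 7 were lower with IL-21, beside 51.2% over the array. Each gene was then represented by the probe set whose mean was highest. The median log2 difference over the 6 genes was -0.17, beside -0.01 over all tested genes. It was -0.45 without replicate 1 with IL-21, -0.03 without replicate 2 with IL-21 and -0.33 without replicate 2 of the arrays lacking IL-21. In the unscaled values the median was 0.40, where the median of all probe sets was 0.57.

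Atf4, the central transcription factor of the response, had signals of 1334 and 1126 on the arrays without IL-21 and of 1259 and 1023 with it. The groups overlapped, and the log2 difference was -0.11 (SE 0.15, 95% interval -0.48 to 0.26; adjusted p = 0.985 in limma). In the unscaled values its difference was 0.51, close to the shift of all probe sets there, so the sign depends on the scaling. The interval, which holds for signals taken relative to the bulk of probe sets, does not reach a factor of 2 in either direction. The unscaled difference lies outside it, so the interval sets no limit on a change in absolute Atf4 mRNA.

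Ddit3, which encodes CHOP, a factor that promotes cell death under prolonged stress, had 57.8 and 45.8 without IL-21 and 41.1 and 28.3 with it. It was the 1 member probe set whose groups did not overlap, which was lower with IL-21. Over the array 17.9% of probe sets were lower without overlap and 15.9% higher. The log2 difference of -0.59 (SE 0.28, 95% interval -1.28 to 0.09) did not pass (adjusted p = 0.967 in limma).

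Trib3, whose product binds ATF4 and restrains it, had 85.9 and 48.4 without IL-21 and 51.3 and 26.2 with it. The lower of the arrays without IL-21 lay below the higher one with it. The log2 difference of -0.81 (SE 0.42, 95% interval -1.85 to 0.22; adjusted p = 0.967 in limma) was the largest among the tested members at 48 h and had the widest interval. The signs for Ddit3 and Trib3 were negative under all 14 alternative settings tried. The settings of filter, variance trend, replicate block and groups fitted left both differences unchanged, so they could not turn a sign.

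Asns, asparagine synthetase, had 793 and 529 without IL-21 and 808 and 427 with it on its brighter probe set. The arrays with IL-21 enclosed those without it (log2 difference -0.14, SE 0.34, 95% interval -0.96 to 0.68; adjusted p = 0.993 in limma). Atf3, a stress-induced factor of the same family as ATF4, had 165 and 132 without IL-21 and 206 and 133 with it on probe set 104155_f_at. Its difference was 0.17 (SE 0.26) there and 0.10 (SE 0.24) on 104156_r_at, with adjusted p of 0.985 and 0.993 in limma. Both Atf3 differences turned negative, to -0.04 and -0.09, when the arrays were scaled on the hybridisation controls, and that of Asns was 0.43 in the unscaled values. Ppp1r15a had 54.4 and 82.9 without IL-21 and 62.5 and 54.4 with it, a difference of -0.20 (SE 0.26; adjusted p = 0.985 in limma) that was 0.36 in the unscaled values. For these genes the difference was within the spread between arrays.

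**Figure D2:**
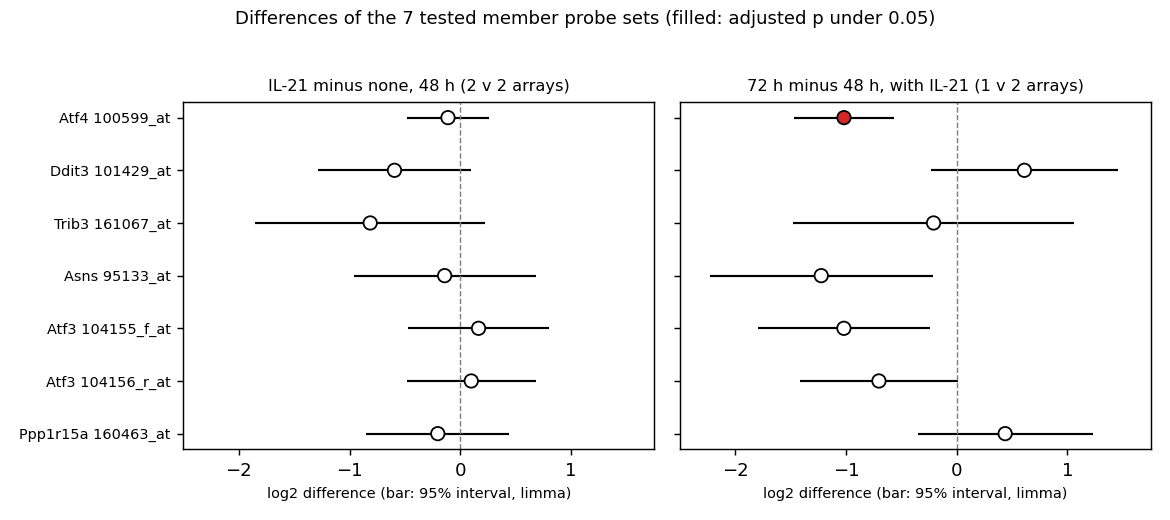
Log2 differences (points) with 95% intervals from limma (bars) for the 7 tested probe sets, for IL-21 minus no IL-21 after 48 h (left) and for 72 h minus 48 h, both with IL-21 (right). The filled point, Atf4 at 72 h (-1.02), is the 1 that passed. In the unscaled values the signs at 48 h of Atf4, Asns and Ppp1r15a turn positive, and on the hybridisation controls those of Atf3 turn negative. At 72 h Ppp1r15a turns negative in the unscaled values and Trib3 positive on the hybridisation controls.

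The arrays of 1 group differed from each other in a way that most members shared. For 6 of the 7 tested probe sets, all but that of Ppp1r15a, replicate 1 was higher than replicate 2 in both 48 h groups, as was the case for 31.4% of all tested probe sets. For Trib3 replicate 1 was 1.78-fold higher without IL-21 and 1.96-fold higher with it. For Atf4 the ratios were 1.18 and 1.23, for Ddit3 1.26 and 1.45, and for Asns with IL-21 1.89. For Asns, Atf3, Atf4 and Trib3 the gap between arrays of a group was thus larger than the difference between the 2 groups. For Trib3 the log2 gaps were 0.83 without IL-21 and 0.97 with it, beside a group difference of -0.81. What the replicate numbers share across groups, if anything, is not given in the labels.

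The comparison over time set the 72 h array against both earlier arrays with IL-21, so it shares those arrays with the first and has no replicate at 72 h. Its standard errors, intervals and p-values rest on the spread within the 48 h groups, which is assumed to hold at 72 h. Atf4 was called lower, Asns and Atf3 were lower on the 72 h array than on every 48 h array without passing the test, and Ddit3 and, except in the unscaled values, Ppp1r15a were higher than at 48 h with IL-21 without passing. Of the 7 tested member probe sets 1 was called lower and 0 higher, where 7.12% of all tested probe sets were called lower and 4.04% higher. An unadjusted p under 0.05 was reached by 3 of the 7, beside 27.3% over the array. The 72 h array lay below all 4 arrays at 48 h for 4 of the 7, beside 33.8% over the array, and above all 4 for 0, beside 30.4%. By sign 5 of the 7 were lower, beside 50.7%. Both tested Atf3 probe sets count in the 4 and in the 5. By gene, 4 of the 6 were lower by sign. The median log2 difference over the 6 genes was -0.61, and that over all tested genes -0.01. It was -0.21 without replicate 1 at 48 h with IL-21, -0.93 without replicate 2 and -1.15 in the unscaled values.

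Atf4 had 1259 and 1023 at 48 h and 560.5 at 72 h, and 1334 and 1126 at 48 h without IL-21. The 72 h value lay below all 4 others, and its log2 difference from the lowest of them was -0.87. The log2 difference from the 48 h arrays with IL-21 was -1.02 (SE 0.18, 95% interval -1.47 to -0.57; adjusted p = 0.0254 in limma), a 2.03-fold fall. Atf4 was lower under all 14 alternatives, by values between -1.71 and -0.87. The alternatives in filter, variance trend or use of the arrays lacking IL-21 left its difference unchanged, so they could not turn its sign. The call was lost without replicate 1 at 48 h with IL-21 (-0.87, adjusted p = 0.105 in limma) and without replicate 2 (-1.17, adjusted p = 0.0663), fits that set 1 array against 1 and called 0 probe sets on the whole array. It was also lost with the arrays scaled on the hybridisation controls (adjusted p = 0.0514) and with no variance trend (-1.02, adjusted p = 0.101).

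Asns had 808 and 427 at 48 h with IL-21 and 252 on the 72 h array on its brighter probe set, again below the 793 and 529 of the arrays without IL-21. The log2 difference of -1.22 (SE 0.41, 95% interval -2.23 to -0.22) had an adjusted p of 0.118 in limma. The spread between the 48 h arrays was wide, and without either of them the difference was -0.76 or -1.68. Among the other scalings it passed in the unscaled values, with arrays centred on their medians and on the hybridisation controls (adjusted p of 0.0042, 0.0256 and 0.0367 in limma). The second Asns probe set, whose suffix marks probes shared with related sequences, had 20.7 and 4.01 at 48 h with IL-21, 11.8 at 72 h, and 19.6 and 17.1 without IL-21. The 4 arrays at 48 h had the same order on both Asns probe sets, but on this dim one the 72 h array was not below them all.

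Atf3 had 206 and 133 at 48 h with IL-21 and 81.5 on the 72 h array on 104155_f_at, and 95.5, 68.9 and 49.9 on 104156_r_at. Both probe sets came from the same GenBank entry, and the suffix of the first marks probes shared with related sequences, as for the dim Asns probe set. The first probe set represents Atf3 in the medians and profiles. On both the 72 h value lay below all 48 h values. The log2 differences were -1.02 (SE 0.32, 95% interval -1.80 to -0.24) and -0.70 (SE 0.29, 95% interval -1.41 to 0.01), with adjusted p of 0.0998 and 0.188 in limma. Among the other scalings the first passed in the unscaled values and with arrays centred on their medians (adjusted p of 0.00745 and 0.0398), the second in the unscaled values (adjusted p = 0.0294). The remaining Atf3 probe set, 161645_r_at, had signals between 2.80 and 3.11 on all 5 arrays, close to the offset.

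Ddit3 went the other way from Atf4. It had 41.1 and 28.3 at 48 h with IL-21 and 52.1 on the 72 h array, between the 57.8 and 45.8 of the 48 h arrays without IL-21. The log2 difference was 0.61 (SE 0.34, 95% interval -0.23 to 1.45; adjusted p = 0.319 in limma), positive under all 14 alternatives (0.11 to 0.88). As for Atf4, not all of these alternatives could turn the sign. Ppp1r15a had 62.5 and 54.4 at 48 h with IL-21 and 79.0 on the 72 h array, below the 82.9 of 1 array without IL-21. Its difference of 0.44 (SE 0.32, 95% interval -0.35 to 1.23; adjusted p = 0.449 in limma) was -0.17 in the unscaled values, where the median of all probe sets was -0.58. Trib3 had 51.3 and 26.2 at 48 h with IL-21 and 31.7 on the 72 h array. Its difference was -0.21 (SE 0.52, 95% interval -1.48 to 1.06; adjusted p = 0.842 in limma) and turned positive without replicate 1 at 48 h with IL-21 (0.27) and on the hybridisation controls (0.05).

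**Figure D3:**
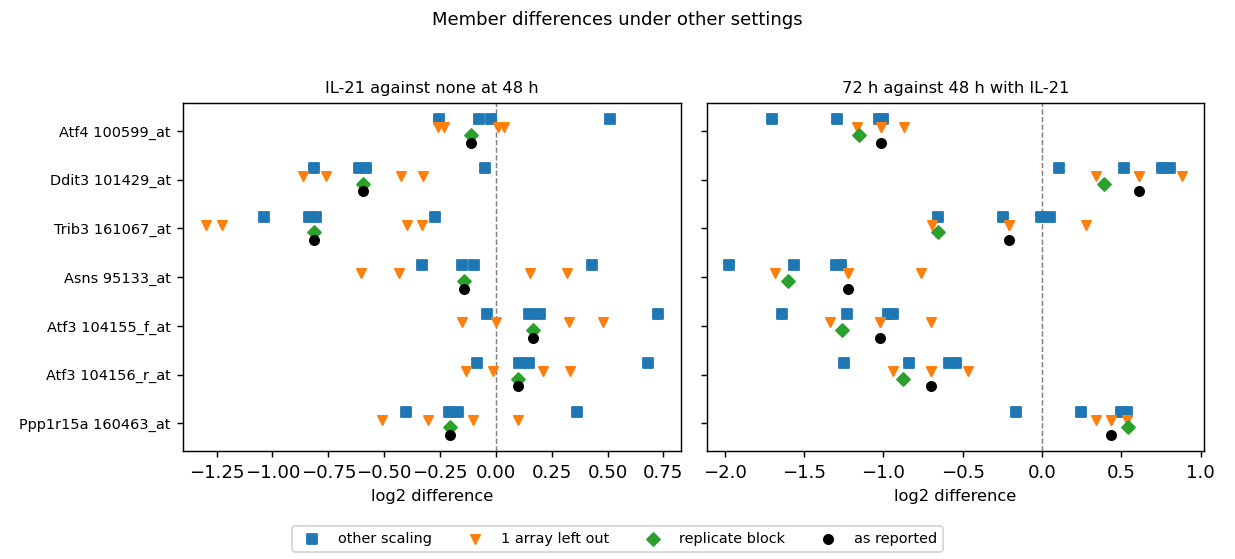
Log2 difference of the 7 tested probe sets as reported (black circles), under 4 other scalings of the arrays (blue squares), without each 48 h array in turn (orange triangles) and with the replicate number as a block (green diamonds), at 48 h (left) and at 72 h (right). At 72 h Atf4, Asns and both Atf3 probe sets stay below 0 and Ddit3 above 0, while Trib3 and Ppp1r15a take either sign.

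The profiles over the 5 arrays were compared as root-mean-square differences between log2 signals, each centred on its own mean. Among the members the closest pair was Atf4 and Atf3 (0.17), followed by Asns and Atf3 (0.23) and Atf4 and Asns (0.24). The farthest pair was Asns and Ppp1r15a (0.79), and Atf4 and Ddit3 lay 0.60 apart. Over all tested genes the 3 profiles closest to that of Atf4 were those of Elavl1, Eif1a and Gm5364 (0.05 to 0.06, where the median over genes was 0.50). For Asns they were Ccdc50, Bcl2l1 and Slc9b2 (0.06 to 0.10), and for Atf3 they were Ppat, Sltm and Gata1 (0.05 to 0.09). Ddit3 was closest to Tro, Defb2 and Cacna1c (0.05 to 0.09), Ppp1r15a to Sra1, Myadm and Idua (0.06 to 0.07) and Trib3, less closely, to Wnk2, Cd74 and Tnfaip8 (0.17 to 0.18). With 5 arrays such closeness is a description only.

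Other genes of the response were read from 7 lists, with each gene represented in the same way. At 48 h 0 genes of these lists were called with IL-21, beside 0% over the array, and list medians lay between -0.24 and 0.09. At 72 h the 2 called stress effectors were higher, and all called genes of every other list were lower, the IRE1 and ATF6 branches included. Over all 5610 tested genes 7.59% were called lower and 4.28% higher at 72 h.

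The aminoacyl-tRNA synthetases charge tRNAs with amino acids, and many are known targets of ATF4. Of 20 tested genes of this list, which includes the tRNA export receptor Xpot, 12 were called lower, 0 higher and 8 neither, with a median log2 difference of -1.09. Xpot had 246 and 215 at 48 h with IL-21 and 58.7 on the 72 h array (-1.97, SE 0.21). Tars, the threonine enzyme, had 366 and 222 and then 101 (-1.50, SE 0.31), and Farsb, a subunit of the phenylalanine enzyme, 157 and 109 and then 46.8 (-1.48, SE 0.30). Rars, the arginine enzyme, had 539 and 495 and then 189.8 (-1.45, SE 0.18), and Iars, the isoleucine enzyme, 648 and 547 and then 235 (-1.34, SE 0.17). The 72 h array lay below all 4 arrays at 48 h for 17 of the 20, beside 33.8% of probe sets over the array. Among them were these 5, which were named as the largest called falls. The 3 genes with a positive difference, Kars (0.53), Qars (0.27) and Vars (0.07), chosen after their values were seen, did not pass. Adjusted p of the 12 called genes ran from 0.00928 to 0.0488 in limma. Without either array lacking IL-21, 5 of the 20 were called, and without either 48 h array with IL-21, 0 were. Of the 13 genes of the list with a RefSeq window under the same symbol, 5 held the core TGATGNAA: Aars, Gars, Iars, Tars and Yars, named here after the search. In the other lists, described next, it was held by 1 of 7 genes of amino acid synthesis, 1 of 5 transporters, 1 of 12 genes of the eIF2 list, 1 of 10 stress effectors, 0 of 11 partner factors and 0 of 12 genes of the IRE1 and ATF6 branches, beside 3.97% of all windows.

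Of 7 tested genes of amino acid synthesis and one-carbon metabolism 3 were called lower and 0 higher (median -0.82). Aldh18a1, which starts proline synthesis, fell from 69.1 and 66.4 to 26.1 (-1.38, SE 0.27). Psat1 and Psph, which act in serine synthesis, fell from 1795 and 1387 to 679 (-1.22, SE 0.21) and from 633 and 522 to 273 (-1.07, SE 0.18). The 1 tested gene of this list with a positive difference was Phgdh, chosen after its values were seen. It had 15.7 and 16.1 and then 23.7 (0.58, adjusted p = 0.556 in limma). Of 8 tested amino acid transporters 2 were called lower and 0 higher (median -1.27). Slc7a5, a carrier of large neutral amino acids, had 1014 and 1076 at 48 h with IL-21 and 359.5 on the 72 h array. Slc1a5, a glutamine carrier, had 231 and 223 and then 108 (-1.07, SE 0.18). Slc7a3 and Slc1a4, chosen after their values were seen, had -2.16 and -1.48 and did not pass (adjusted p of 0.0546 and 0.0833 in limma). Adjusted p of the called genes of both lists ran from 0.00928 to 0.0305 in limma. With either 48 h array with IL-21 left out, 0 genes of either list were called. Without either array lacking IL-21, 1 transporter was called, while 6 were in the unscaled values and 5 with arrays centred on their medians.

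Of 13 tested genes for the eIF2 kinases, eIF2, its exchange factor eIF2B and their regulators, 3 were called lower and 0 higher (median -0.44). Eif2s2, the beta subunit of eIF2, fell from 36.5 and 37.1 to 11.6 (-1.67, SE 0.31), Eif2b1, a subunit of eIF2B, from 350 and 376 to 161 (-1.17, SE 0.25), and Eif2s3x, the gamma subunit of eIF2, from 1903 and 2049 to 1206 (-0.71, SE 0.12). Their adjusted p lay between 0.0208 and 0.0362 in limma. Eif2s2 was dim at 72 h and passed the filter through its 48 h signals, so the size of its fall is uncertain. Without either 48 h array with IL-21 0 genes of this list were called, as with no variance trend, while 1 was called with no filter and 8 in the unscaled values. None of the kinase genes passed. Eif2ak3, which encodes PERK, differed by 0.84 and Eif2ak4, which encodes GCN2, by -0.68, both chosen after their values were seen and with adjusted p of 0.257 and 0.365. Of 12 partner and related factors 1 was called lower, Fosl1, a component of AP-1. Fosl1 fell from 24.5 and 43.7 to 8.62 (-1.92, SE 0.44, adjusted p = 0.0465 in limma). It was dim at 72 h and passed the filter through its 48 h signals, so the size of the fall is uncertain. In 10 of the 14 alternatives no gene of that list was called, among them all 4 in which an array was left out. No other member of that list passed, and the median was -0.06.

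Of 12 tested stress effectors downstream of ATF4 and CHOP 0 were called lower and 2 higher, and the median was 0.54. Ddit4, an inhibitor of mTORC1 that responds to several stresses, rose from 405 on both 48 h arrays with IL-21 to 1201 (1.57, SE 0.17; adjusted p = 0.0102 in limma). It had 457 and 556 without IL-21. Bcl2l11, which encodes the death-promoting protein BIM, rose from 107 and 103 to 237 (1.18, SE 0.22; adjusted p = 0.0286 in limma), and its 2 other tested probe sets had 0.69 and 0.71. Without either 48 h array lacking IL-21, 1 of the 12 was called, as in the unscaled values and with arrays centred on their medians. Of 14 tested genes of the IRE1 and ATF6 branches, which act beside the ATF4 branch in the unfolded protein response, 4 were called lower and 0 higher (median -0.51). These were Hspa5, the chaperone BiP, from 974 and 784 to 369.8 (-1.24, SE 0.18), Creld2 (-1.14, SE 0.20), Pdia6, a disulphide isomerase (-1.001, SE 0.19, and -3.01 and -0.95 on its 2 other tested probe sets), and Hsp90b1, the chaperone GRP94 (-0.77, SE 0.14), with adjusted p between 0.0158 and 0.0274 in limma. On the hybridisation controls 1 gene of the list was called, and in the unscaled values 10 were. Without either 48 h array with IL-21 no gene of these lists was called. The difference between lists was not tested.

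**Figure D4:**
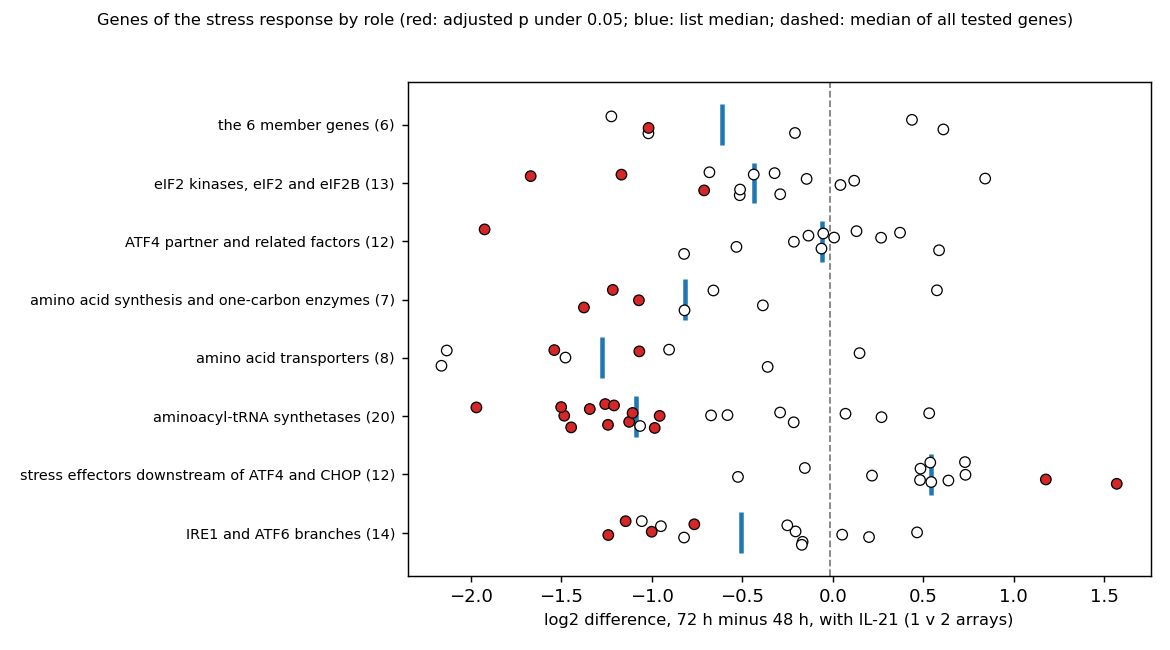
Log2 difference at 72 h minus 48 h with IL-21 (horizontal axis) of each tested gene (points), grouped by role, with the number of genes after each name. Red points passed at an adjusted p under 0.05 in limma, blue bars are list medians and the dashed line is the median of all tested genes (-0.01). Among the synthetases 12 points are red, all lower, while the 2 red points of the stress effectors are higher.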

How the data were processed

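The deposited table holds 1 linear intensity per probe set and array. The submitters' processing notes name MAS5. Its version, its scaling target and any detection calls were not given in the sources used here. Since trimmed means differed between arrays, log2(signal + 1.53), the offset being the 10th percentile of all values, was quantile normalised. MAS5 signals are noisy near background, and the offset understates differences of dim probe sets. Probe sets with a mean above the 40th percentile were tested, 7453 of 12422. Each gene of a list was read by its probe set of highest mean. Gene names came from the platform annotation, updated through Entrez identifiers, with 10817 of 10833 singly named probe sets matched. The 396 probe sets with several names were assigned to no gene.

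Means of the 3 groups were fitted to all 5 arrays with limma 3.58.1 in R 4.3.3 (2 residual degrees of freedom, two-sided, empirical Bayes with a variance trend, Benjamini-Hochberg adjustment over all tested probe sets, threshold 0.05). The procedure was tested on simulated data with independent noise and planted changes. These data held no difference in overall signal between groups and no shift shared by replicates, so they do not test the procedure under either. The members and lists were chosen with earlier results of these data known. Named genes were all members, up to 5 called genes per list by size at 72 h, and the 3 closest profiles per member. Genes named outside this rule were chosen after their values were seen. Alternatives were the scaling, offset, filter, variance trend, replicate block, the samples fitted and each 48 h array left out. Promoter sequences are from RefSeq (GRCm38.p6).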

Additional observations from a re-analysis of the deposited data

How the results depend on the processing

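With 5 arrays and 1 at 72 h, the number of arrays limits all results. At 72 h the directions of Atf4, Asns 95133_at, both tested Atf3 probe sets and Ddit3 held under all 14 alternatives, and at 48 h those of Ddit3 and Trib3 did. Not all alternatives could turn a sign. The filter, the variance trend and fitting only the groups compared leave a difference unchanged. So does leaving out an array lacking IL-21 for 72 h, and the replicate block for 48 h. Signs turned as follows, none past the threshold. In the unscaled values they were 0.51 (Atf4), 0.43 (Asns) and 0.36 (Ppp1r15a) at 48 h and -0.17 (Ppp1r15a) at 72 h. On the hybridisation controls they were -0.037 and -0.085 (Atf3, 48 h) and 0.048 (Trib3, 72 h). With 1 array left out, the 48 h difference ranged from -0.26 to 0.038 for Atf4, -0.60 to 0.32 for Asns, -0.15 to 0.48 and -0.14 to 0.33 for Atf3 and -0.51 to 0.10 for Ppp1r15a, and that of Trib3 at 72 h from -0.69 to 0.27. The member median at 72 h was -1.15 unscaled and -0.93 to -0.21 with 1 array left out. At 48 h it was 0.40 unscaled. Member probe sets called at 72 h numbered 4 unscaled, 3 centred on medians, 0 without a variance trend and 0 to 1 with 1 array left out.

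Probe sets called over the array at 72 h numbered 2128 unscaled, 0 without a variance trend, 425 with only the groups compared and 0 to 453 with 1 array left out, beside 832. At 48 h they numbered 696 unscaled, beside 0. The share called higher at 72 h was 36.2%, and 4.75% unscaled, 18.1% centred on medians and 50% on the hybridisation controls. The median of all probe sets at 72 h moved to -0.58, -0.17 and 0.12 in these. The cause of these changes was not tested, other than that the fits with fewer arrays have fewer samples. The counts per list were recomputed under the same alternatives, a choice made after seeing the data. At 48 h genes of the lists were called in the unscaled values, up to 3 in a list.

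With the replicate number as a block, 4 member probe sets were called lower at 72 h: Atf4 (-1.15), Asns (-1.60) and both of Atf3 (-1.26 and -0.88). Over the array 1860 were called at 72 h and 11 at 48 h, with 0 members among the latter. Deviations of replicate 1 from the group mean correlated at 0.36 between the 48 h groups over 7453 probe sets, which with 2 pairs does not show that the numbers pair the samples.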
